A study of Mus musculus with 2 samples.

Results

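The RNA polymerase I, II and III subunits were taken as all genes whose symbol begins with Polr1, Polr2 or Polr3, which gave 28 of the 29833 genes in the F123 table. They held 40 of its 37178 records, where a record is 1 gene with 1 transcript biotype: 28 protein-coding and 12 long noncoding (lncRNA) records. F123 is a male hybrid mouse embryonic stem cell (mESC) line from a cross of an S129 mother and a CAST father, and it carries no other treatment or edited allele. Total RNA came from 2 biological replicates of this 1 line, grown on inactivated embryonic fibroblasts and then passaged at least 2 times on gelatin without feeders. Reads over bases that differ between the strains were assigned to the CAST or the S129 allele. The deposited table holds 1 sum of these allelic reads per record and allele and names no replicate. This sum is taken here to cover both replicates. The spread between replicates therefore could not be computed, and every interval, standard error (SE) and p-value below covers counting error only.

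RNA polymerase I transcribes the large ribosomal RNA precursor, RNA polymerase II makes mRNAs and many noncoding RNAs, and RNA polymerase III makes tRNAs, 5S ribosomal RNA and other short RNAs. Each enzyme is built around a pair of large catalytic subunits of its own, with a scaffold, a stalk and a set of small subunits, and some of the small subunits are common to all the polymerases. Polymerase III has in addition an initiation subcomplex in which Polr3g, prominent in stem cells, and its ubiquitous paralog Polr3gl occupy the same place.

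Promoter sequences are shown for the members of that initiation subcomplex on which the results turn: Polr3c and Polr3gl, whose allelic reads came from 1 strain only, and Polr3g, the paralog of Polr3gl with reads from both. The sequences are from RefSeq (GRCm38.p6), run 5′ to 3′ on the minus strand, and cover 250 bases before to 50 bases after each start, at chr3:96727390-96727689, chr3:96594132-96594431 and chr13:81710964-81711263. Capitals mark matches on either strand. They are the E-box with the letters CACGTG, the GC box with GGGCGG or its reverse complement CCGCCC, the CCAAT box with its reverse complement ATTGG, and the ETS core with CCGGAAG or its reverse complement CTTCCGG.
Polr3c: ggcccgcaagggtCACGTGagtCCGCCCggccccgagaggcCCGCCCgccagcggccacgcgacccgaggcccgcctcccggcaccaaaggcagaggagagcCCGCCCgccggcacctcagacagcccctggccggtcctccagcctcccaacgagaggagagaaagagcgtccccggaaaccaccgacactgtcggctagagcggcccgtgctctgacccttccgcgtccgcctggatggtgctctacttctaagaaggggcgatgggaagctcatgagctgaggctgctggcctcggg
Polr3gl: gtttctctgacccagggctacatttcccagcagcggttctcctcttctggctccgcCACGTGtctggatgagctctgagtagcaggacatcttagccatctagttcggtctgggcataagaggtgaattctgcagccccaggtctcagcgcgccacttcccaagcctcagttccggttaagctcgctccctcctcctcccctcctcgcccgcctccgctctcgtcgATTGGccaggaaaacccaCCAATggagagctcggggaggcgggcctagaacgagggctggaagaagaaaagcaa
Polr3g: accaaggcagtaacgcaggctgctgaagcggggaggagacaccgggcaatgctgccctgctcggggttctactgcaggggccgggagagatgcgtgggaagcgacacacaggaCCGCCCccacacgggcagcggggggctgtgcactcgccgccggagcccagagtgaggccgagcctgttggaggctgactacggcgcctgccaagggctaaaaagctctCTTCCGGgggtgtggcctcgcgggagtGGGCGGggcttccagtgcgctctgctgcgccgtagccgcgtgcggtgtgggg
An E-box is present in the Polr3c and Polr3gl windows and not in the Polr3g window. RefSeq promoters were read for 22 of the 28 genes, as 24 windows, with a further window each for Polr2h and Polr2m. Of the 22 genes, 4 held an E-box (18.2%, against 7.15% of all 32851 promoters), and these were Polr2h, Polr3c, Polr3e and Polr3gl. A gene was counted if any of its windows held a match, while the share of all promoters was counted per promoter. The paired motif shares here are therefore not like for like, and their differences were not tested. A GC box was present in 14 of 22 (63.6%, against 35.7%), and an ETS core in 7 of 22 (31.8%, against 8.86%). The CCAAT box was found in 7 of 22 (31.8%, against 37.4%) and the letters TATAAA in 2 of 22 (9.09%, against 13.6%). The median GC content of these promoters was 60% and that of all promoters 52.7%. A match describes the letters of a window and does not show that a factor binds there.

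All 40 records were expressed, with a TPM (a level per transcript length and library size, here over exons and introns) of at least 1. Their median TPM was 15.3, against 6.24 over the 17956 expressed records of the table. The range ran from 5.73 for the protein-coding record of Polr3b, the second-largest polymerase III subunit, to 195 for Polr2e, a small subunit of all 3 polymerases. The cells matched their label: the protein-coding records of 8 mESC markers, among them Pou5f1, Sox2 and Nanog, had TPM values from 14.4 (Esrrb) to 381 (Dppa5a). Of the 11 records of 8 fibroblast feeder markers 5 reached a TPM of 1, the highest being Acta2 at 8.77, while Dcn and Lum were at 0.036 and 0.037. In bulk RNA, fewer cells of a type and less RNA per cell cannot be told apart.

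Levels of the protein-coding records are given by enzyme, with no test between genes. The median TPM was 28.2 for the 5 subunits common to the 3 polymerases and 26.3 for the 7 polymerase II subunits. It was 11.8 for the 3 Polr subunits of polymerase I alone and 10.5 for the 10 of polymerase III. These medians leave out subunits under other symbols. Of those, Cd3eap, Twistnb and Znrd1 of polymerase I stood at 49.1, 34.1 and 24.6, all above 11.8, and Crcp of polymerase III at 2.42. Among the common subunits Polr2e was followed by Polr2h (34.0), Polr2k (28.2), Polr2f (22.1) and Polr2l (15.8). These small proteins serve every polymerase, so that 1 gene supplies all 3 enzymes. The scaffold subunits Polr1d and Polr1c, which polymerases I and III share, had TPM values of 75.8 and 61.0.

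Within polymerase II, the zinc ribbon subunit gene Polr2i was highest at 138, followed by the scaffold gene Polr2j at 34.5 and the second-largest subunit gene Polr2b at 28.1. Polr2g and Polr2d, which form the stalk, stood at 26.3 and 12.9, the scaffold gene Polr2c at 21.4 and Polr2a, whose product carries the C-terminal repeat domain, at 18.5. Polr2m, which encodes the polymerase II-associated protein Gdown1, had a TPM of 41.8. The genes of the large polymerase I subunits were close to each other, with Polr1a at 12.1 and Polr1b at 11.8, and Polr1e, of the polymerase I subcomplex related to TFIIF, at 10.5.

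Polymerase III genes were mostly near a TPM of 10. The exception was Polr3d (43.6), of the subcomplex related to TFIIF, whose partner Polr3e stood at 12.0. In the initiation subcomplex, Polr3c had a TPM of 10.8 and Polr3f of 10.6. The stem cell paralog Polr3g was at 14.8 and Polr3gl at 7.40, and over exons alone at 15.8 and 5.18. The remaining levels were 10.5 for the zinc ribbon subunit gene Polr3k, 7.11 for the largest subunit gene Polr3a and 5.73 for Polr3b. Each is 1 value with no replicate named, so neighbours in this order were not tested against each other. The scale moves with intron content: the TPM over exons and introns divided by that over exons had a median of 0.820 in the eighth of records with the fewest intron bases per exon base and 1.49 in the eighth with the most.

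**Figure D1:**
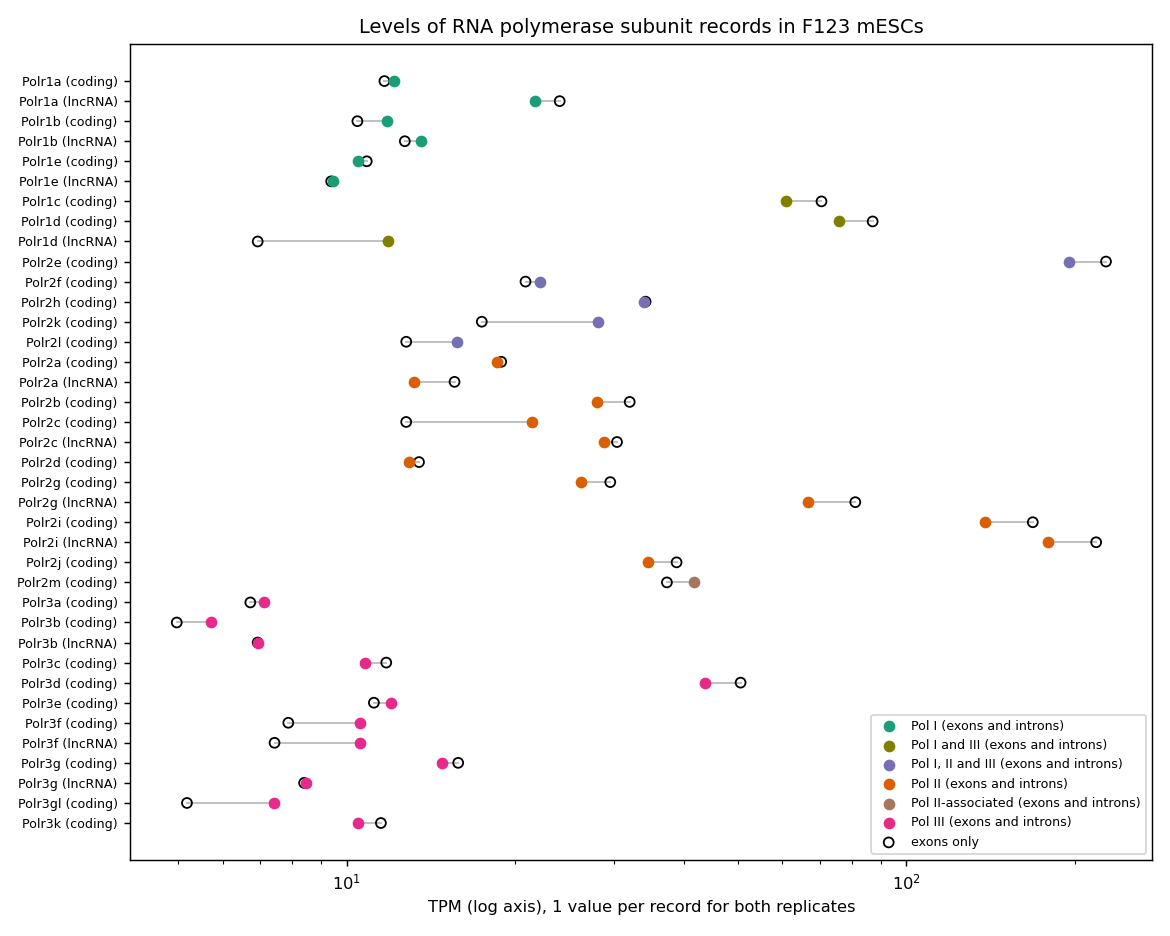
TPM (log axis) of 38 RNA polymerase subunit records, 1 value per record taken to cover both replicates, with filled points over exons and introns, coloured by polymerase, and open points over exons alone. Polr2e (195) and both Polr2i records (138 and 179) lie above a TPM of 100 over exons and introns.

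Allelic reads were present in 39 of the 40 records, the exception being the lncRNA record of Polr2a (TPM 13.2), which holds no variant. A record held between 9 and 7854 such reads (median 357, against 397 over the 15935 expressed records with reads), and 7 records rested on 1 variant. The 28 protein-coding records, which do not overlap each other, held 21068 CAST and 20524 S129 reads, or 50.7% CAST. Their median CAST share was 53.4%, and over all 39 records it was 54.5% against 50.1% in the table. Of the 39 records, 29 lay between 40 and 60% CAST (74.4%, against 67.4% of all). The median absolute log2 fold change between the alleles was 0.34, against 0.36.

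Allele-specific expression (ASE) was called at an adjusted p of at most 0.05, a fold of at least 2 between the alleles and a TPM of at least 1, by two-sided exact binomial tests with Benjamini-Hochberg adjustment over the 18632 records with reads. It was found in 5 of the 39 subunit records, or 12.8%, against a background of 14.1% of all tested expressed records. Of these, 4 were higher on CAST (background 8.33%) and 1 on S129 (background 5.78%). The 5 records belonged to 4 genes: Polr1d, Polr1e, Polr3c and Polr3gl. Polr3c and Polr3gl had reads from 1 allele only, 2 of 39 records against a background of 1.21%. None of the 10 polymerase II records with reads or the 5 records of common subunits was called. With no minimum fold, 22 of 39 records (56.4%) had unequal reads against a background of 48.3%, 14 of them higher on CAST (background 25.4%) and 8 on S129 (background 22.9%). If the reads of 1 record are taken to be correlated at 0.01, 6 of the 22 remain, against 14.3% of all records.

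**Figure D2:**
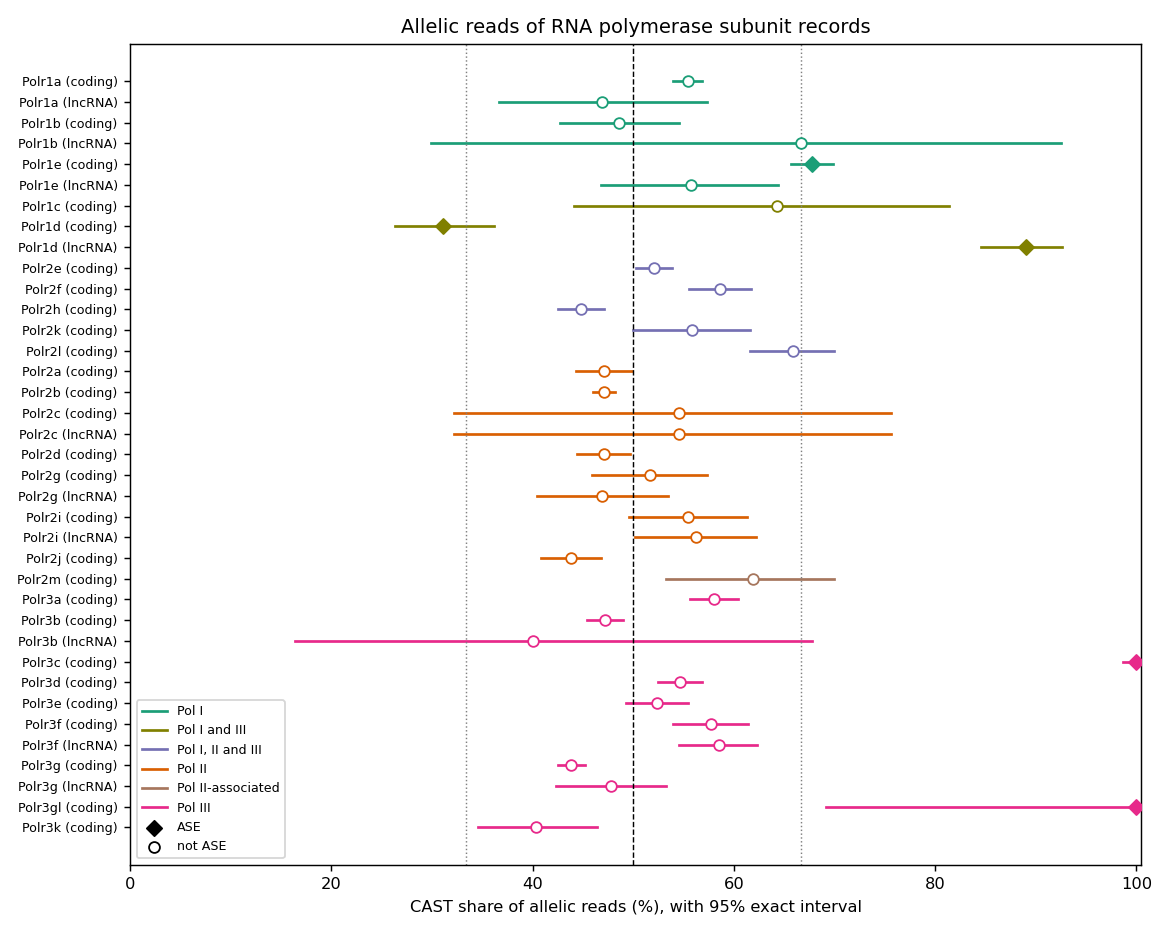
CAST share of allelic reads (%) of 37 records with reads, with bars for the exact 95% interval, coloured by polymerase; diamonds are ASE records, the dashed line marks equal shares and the dotted lines a 2-fold difference. Polr3c and Polr3gl sit at 100%, the 2 Polr1d records at 31.1% and 89.1%, and all polymerase II records between 43.8% and 56.3%.

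Polr3c encodes a subunit of the polymerase III initiation subcomplex. Its record (chr3:96711523-96727441, minus strand, mm10) held 286 CAST reads and 0 S129 reads. If 3 reads are taken as the limit that a count of 0 allows, CAST was at least 95.3-fold higher and the S129 share at most 1.05%. The exact 95% interval of the CAST share is wider, from 98.7 to 100% (adjusted exact binomial p = 9.34e-85). All 286 reads come from 1 exonic variant, at which CAST carries the base that differs from the reference genome.

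Polr3gl (chr3:96577872-96594181, minus strand), 133 kb from the start of Polr3c, had 10 CAST reads and 0 S129 reads at its 1 exonic variant. The authors state a minimum of 20 reads per variant, which these reads do not reach. The exact 95% interval of the CAST share ran from 69.2 to 100% (adjusted exact binomial p = 0.00537). The record overlaps the protein-coding gene Gm16253 on the opposite strand over 2792 bases, and that record holds the same 10 and 0 reads, so the reads cannot be assigned to either gene. The paralog Polr3g (chromosome 13) rested on 62 variants with 2212 CAST and 2833 S129 reads, or 43.8% CAST (exact 95% interval 42.5 to 45.2%). The paralogs thus differ widely in the depth behind their shares, and they were not tested against each other.

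The neighbourhood of Polr3c and Polr3gl was looked at after their values were seen. In a window of 300 kb around both genes, 17 records were expressed, 8 of them without a variant, and the 9 with reads held at most 2 variants each. Of these 9, 6 had reads from 1 allele only, 4 from CAST and 2 from S129. Lix1l (0 CAST and 20 S129 reads) and Ankrd35 (0 and 26) were the S129 records. Itga10 (9 and 0) was a further CAST record, also under the authors' minimum of 20 reads per variant. In all 6 the reads came from the strain that carries the non-reference base, though Polr3gl and Gm16253 hold the same reads, so that these are 5 separate sets of reads. Reads from both alleles were present in Pias3, which lies among them, with 17 CAST and 16 S129 reads, and in Txnip, which lies to one side of them, with the same 84 and 85 reads in each of its 2 records.

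Over all tested expressed records with reads from 1 allele at 1 variant that were called ASE, 96 of 117 (82.1%) pointed to the strain with the non-reference base. The share was 89 of 105 where CAST carried it and 7 of 12 where S129 did. Some of the 117 hold the same reads, as Polr3gl and Gm16253 do. Over all tested expressed records with 1 variant, called or not, the median CAST share was near equal. It was 50% in the 1149 where CAST carried the non-reference base and 50.7% in the 168 where S129 did. Polr3c and Polr3gl are among the 105, and held 0.063 and 0.061 counted variants per kb, against a median of 1.54 over the subunit records. Within 500000 bases of Polr3c, 12 of 17 other records with reads were ASE (background 14.1%), 10 on CAST and 2 on S129. Of the 12, 4 were protein-coding histone genes of the Hist2 cluster. The 12 are not separate sets of reads. Besides Gm16253 and Polr3gl, Gm20632 and Hist2h2aa2 hold the same 215 CAST and 0 S129 reads, and Gm42743 and Hist2h2bb the same 789 and 0. Gm20628 (1367 and 43 reads) spans Hist2h3b and Hist2h2bb. What part the base carried by each strain has in the Polr3c and Polr3gl values was not tested.

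**Figure D3:**
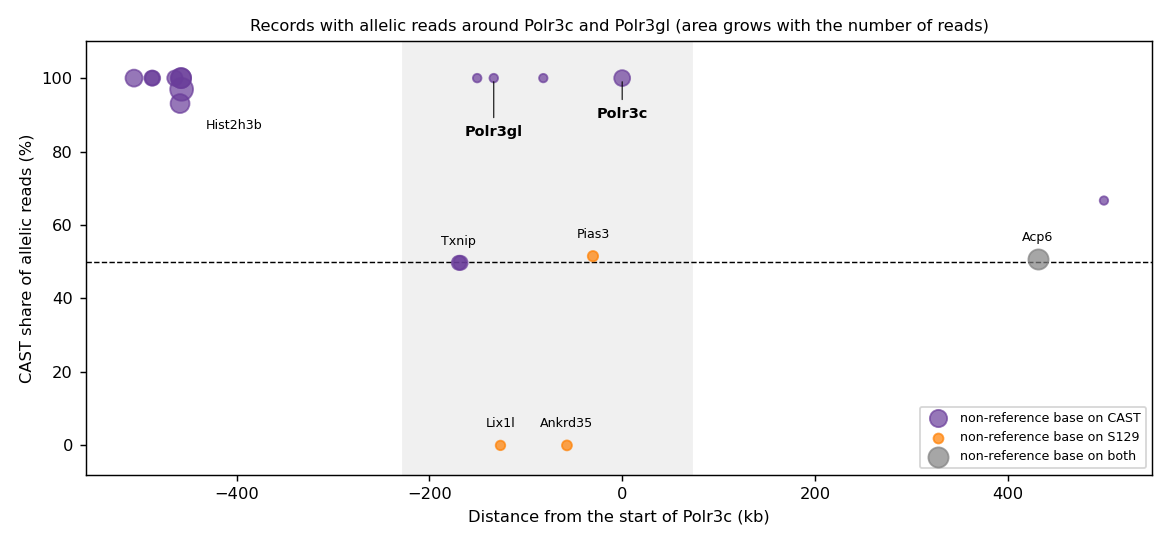
CAST share of allelic reads (%) of records within about 500 kb of Polr3c against the distance of their starts from that of Polr3c (kb), with point area growing with the number of reads, colour for the strain that carries the non-reference base, and grey shading for the 300 kb window. Polr3c, Polr3gl, Gm16253 and Itga10 lie at 100%, Lix1l and Ankrd35 at 0%, and Txnip and Pias3 at 49.7% and 51.5%.

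Polr1d, a scaffold subunit of polymerases I and III, was the 1 gene with ASE in both of its records, and on opposite alleles. The protein-coding record (chr5:147077050-147079086, plus strand) held 111 CAST and 246 S129 reads at 3 variants, or 31.1% CAST (exact 95% interval 26.3 to 36.2%). Its log2 fold change was -1.15 (SE 0.16, adjusted exact binomial p = 5.48e-12), a 2.22-fold excess of S129. The lncRNA record (chr5:147105366-147110986, plus strand, TPM 11.9) lies 26.3 kb downstream and shares no base with it. It held 228 CAST and 28 S129 reads at 6 variants, or 89.1% CAST (84.6 to 92.6%), with a log2 fold change of 3.03 (SE 0.29, adjusted exact binomial p = 8.71e-39). The values thus describe separate stretches of the gene, and no variant is shared. The partner scaffold gene Polr1c had 18 CAST and 10 S129 reads (64.3% CAST, 44.1 to 81.4%), too few to place it on either side (adjusted exact binomial p = 0.289).

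Polr1e (chr4:45019235-45032112, plus strand) was higher on CAST with 1318 against 627 reads at 24 variants, or 67.8% CAST (65.6 to 69.8%). The log2 fold change of 1.07 (SE 0.07, adjusted exact binomial p = 7.86e-55) lay just above the 2-fold limit. Its lncRNA record (TPM 9.47), which overlaps it over 7636 bases, had 73 CAST and 58 S129 reads, or 55.7% CAST, with a log2 fold change of 0.33 (SE 0.25, adjusted exact binomial p = 0.335). At an assumed correlation of 0.05 between the reads of a record, the ASE calls of Polr1e, the protein-coding record of Polr1d and Polr3gl are lost.

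The large subunits of polymerase I were both under the 2-fold limit. Polr1a had 2531 CAST and 2037 S129 reads, 55.4% CAST, with a log2 fold change of 0.31 (SE 0.04, adjusted exact binomial p = 2.27e-12), while its lncRNA record (TPM 21.7), which lies inside the gene, had 45 and 51 reads, 46.9% CAST and a log2 fold change of -0.18 (SE 0.30, adjusted exact binomial p = 0.735). Over 2631 bases Polr1a overlaps the lncRNA Gm26628 (260 and 208 reads) on the opposite strand, and reads in the overlap cannot be assigned to either gene. Polr1b gave 141 and 149 reads, 48.6% CAST (log2 fold change -0.08, SE 0.17, adjusted exact binomial p = 0.798). Its lncRNA record (TPM 13.6) rested on 9 reads, 6 from CAST and 3 from S129 (66.7% CAST, log2 fold change 1.00, SE 1.02, adjusted exact binomial p = 0.639), which leaves its share almost undetermined.

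Of the subunits common to all 3 polymerases, 4 of 5 had unequal reads, none by 2-fold, where the background over all protein-coding records was 52.9%. The 5 were deeper, with a median of 1032 reads against 397 over all records. Of the 4, Polr2l alone keeps the call at an assumed correlation of 0.01. Polr2l came nearest, with 343 CAST and 178 S129 reads, or 65.8% CAST, and a log2 fold change of 0.95 (SE 0.13, adjusted exact binomial p = 3.40e-12). Polr2f was also higher on CAST, with 605 against 427 reads, 58.6% CAST and a log2 fold change of 0.50 (SE 0.09, adjusted exact binomial p = 1.77e-07). The deepest, Polr2e, had 1649 and 1518 reads, 52.1% CAST (adjusted exact binomial p = 0.0453), and is lost as a call when the CAST share of all reads replaces equal shares. Only Polr2h among them was higher on S129, at 44.8% CAST with 820 against 1011 reads (adjusted exact binomial p = 3.57e-05). Polr2k, at 292 reads and 55.8% CAST, did not pass (adjusted exact binomial p = 0.103).

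Polymerase II genes ranged from 43.8 to 56.3% CAST over 10 records. The 2 called unequal were both higher on S129: Polr2j, with 490 CAST and 629 S129 reads, 43.8% CAST and a log2 fold change of -0.36 (SE 0.09, adjusted exact binomial p = 1.35e-04), and Polr2b, with 3697 and 4157 reads and 47.1% CAST (adjusted exact binomial p = 1.08e-06). Polr2a had 597 and 671 reads, 47.1% CAST, with a log2 fold change of -0.17 (SE 0.08, adjusted exact binomial p = 0.0808), and Polr2d 662 and 745 reads, 47.1% CAST (adjusted exact binomial p = 0.0601). Both pass when the CAST share of all reads replaces equal shares.

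The remaining polymerase II genes each had a protein-coding and a lncRNA record, and none passed. Polr2i had 162 CAST and 130 S129 reads, 55.5% CAST (log2 fold change 0.32, SE 0.17, adjusted exact binomial p = 0.129), and its lncRNA record (TPM 179) 153 and 119, 56.3% CAST (0.36, SE 0.18, adjusted exact binomial p = 0.0892), with most of the same bases in both. Polr2g had 159 and 149 reads, 51.6% CAST (0.09, SE 0.16, adjusted exact binomial p = 0.733), and its lncRNA record (TPM 66.6) 112 and 127 reads, 46.9% CAST (-0.18, SE 0.19, adjusted exact binomial p = 0.497). Both Polr2c records (lncRNA TPM 28.9) held the same 12 CAST and 10 S129 reads at 1 variant, 54.5% CAST (0.26, SE 0.62, adjusted exact binomial p = 0.913). Polr2m, which is not a core subunit, was higher on CAST with 86 against 53 reads, 61.9% CAST and a log2 fold change of 0.70 (SE 0.25, adjusted exact binomial p = 0.0158).

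In polymerase III, 11 of 14 records (78.6%, against the background of 48.3%) had unequal reads, 7 higher on CAST and 4 on S129. These shares are not at like depth. The median was 787.5 reads in the polymerase III records and 397 over all, and the background was 57.1% among records with at least 100 reads. At an assumed correlation of 0.01, Polr3c and Polr3gl alone keep the call. Besides Polr3c and Polr3gl, the CAST side held Polr3a (985 CAST and 713 S129 reads, 58.0% CAST, adjusted exact binomial p = 2.98e-10) and Polr3d (1137 and 944 reads, 54.6% CAST, adjusted exact binomial p = 9.64e-05). Both Polr3f records were on that side. The protein-coding record had 401 and 294 reads, 57.7% CAST, with a log2 fold change of 0.45 (SE 0.11, adjusted exact binomial p = 2.03e-04), and the lncRNA record (TPM 10.6), which covers nearly the same bases, 379 and 269 reads, 58.5% CAST, with 0.49 (SE 0.12, adjusted exact binomial p = 6.89e-05).

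On the S129 side, Polr3k had 113 and 167 reads, 40.4% CAST and a log2 fold change of -0.56 (SE 0.18, adjusted exact binomial p = 0.00421).

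Polr3g, with the reads given above, had a log2 fold change of -0.36 (SE 0.04, adjusted exact binomial p = 2.48e-17), and its lncRNA record (TPM 8.47) had 162 and 177 reads, 47.8% CAST and -0.13 (SE 0.16, adjusted exact binomial p = 0.583). Polr3b was close to equal at 1480 CAST and 1656 S129 reads, 47.2% CAST (log2 fold change -0.16, SE 0.05, adjusted exact binomial p = 0.00493). Its lncRNA record (TPM 6.95) had 6 and 9 reads, 40% CAST (-0.58, SE 0.76, adjusted exact binomial p = 0.733). Polr3e, with 545 and 496 reads and 52.4% CAST, did not pass (adjusted exact binomial p = 0.228).

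Of the 12 genes with both kinds of record, 11 had reads in both. The exact 95% intervals of the 2 records were apart in Polr1d and Polr1e among the genes described here. Over all 11 the records lay on opposite sides of equal shares in 5. Among these, the intervals overlapped and the lncRNA record did not pass in Polr1a, Polr1b and Polr2g. No share over other genes with 2 records is given beside this count. Records of 1 gene that overlap can share reads, as 10 of the 12 pairs do in position, so their shares are not independent. In Polr1d the records do not overlap. The lncRNA record had the higher TPM in 8 of 12, again without a share over other genes. Where the records overlap, the same reads can also enter both TPM values. This count therefore does not show that a gene makes more lncRNA than mRNA.

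**Figure D4:**
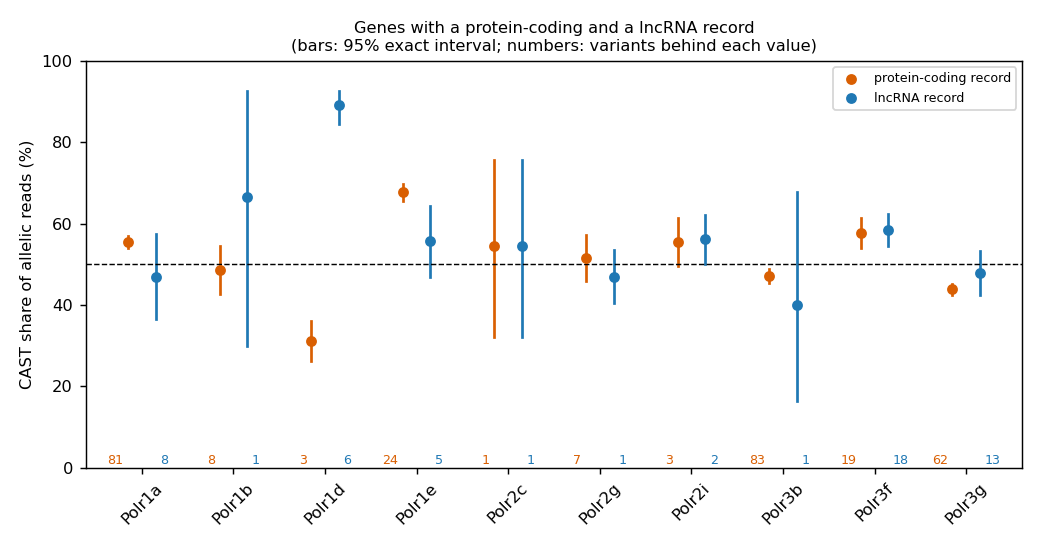
CAST share of allelic reads (%) of the protein-coding (orange) and lncRNA (blue) records of 10 genes with reads in both, with exact 95% intervals as bars and the number of variants behind each value at the foot. The Polr1d records, at 31.1% and 89.1%, are the farthest apart, and the Polr2c records coincide at 54.5%.

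Other genes of polymerase function were taken from lists of 67 genes with 99 records. Of the 94 with reads, 11 were ASE (11.7%, against the background of 14.1%), 8 higher on CAST and 3 on S129, and 51 (54.3%, against the background of 48.3%) had unequal reads at any fold. Subunits known under other symbols comprised Cd3eap, Twistnb and Znrd1 of polymerase I and Crcp of polymerase III. Cd3eap had a TPM of 49.1 with 535 CAST and 509 S129 reads, and Twistnb of 34.1 with 219 and 155 (lncRNA record 21 and 24). Znrd1 had a TPM of 24.6 with 323 and 204 reads, and its lncRNA record no variant. Crcp, at a TPM of 2.42, was lower than all 40 Polr records. It held 119 and 236 reads, just under the 2-fold limit (log2 fold change -0.99, SE 0.16, adjusted exact binomial p = 3.27e-09). Its lncRNA record, which covers nearly the same bases, had 124 and 253 reads and passed as ASE on S129 (log2 fold change -1.03, SE 0.16, adjusted exact binomial p = 1.93e-10).

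Among polymerase I initiation and termination factors, 1 of 9 tested records was ASE, the lncRNA record of Taf1d, with 708 CAST and 264 S129 reads. The polymerase III initiation factors and Maf1 had 2 of 22, both of Snapc4, a subunit of the complex that recognises snRNA promoters, with 131 and 36 reads in the protein-coding record and 55 and 0 in the lncRNA record, at least 18.3-fold higher on CAST. This lncRNA record lies almost wholly within the protein-coding one, so the records can share reads. Its reads come from 1 variant, at which CAST carries the non-reference base. Assembly and import factors had 2 of 18: Rpap1, a polymerase II-associated protein, with 1216 and 266 reads (log2 fold change 2.19, SE 0.10, adjusted exact binomial p = 4.59e-143), and the lncRNA record of Uri1, with 739 and 3 reads. The other record of each gene overlaps it and was not ASE. The lncRNA record of Rpap1 had 55 and 71 reads (43.7% CAST), and the protein-coding record of Uri1 had 2386 and 2124 (52.9% CAST). Polymerase II elongation factors and factors acting on the C-terminal domain had 5 of 37. On S129 these were Supt4a (30 and 216 reads, log2 fold change -2.85, SE 0.28) and Cdk9, the kinase of P-TEFb (21 and 68 reads, -1.70, SE 0.36), and on CAST they included Ell (110 and 28 reads) and Ell2 (1588 and 713 reads). The mitochondrial polymerase gene Polrmt did not pass in either record, the protein-coding one (TPM 23.1) holding 407 and 406 reads and the lncRNA one 182 and 148.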

How the data were processed

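Total RNA-seq of F123 mESCs was available as 1 table whose columns name no replicate. For the deposited counts, the authors used GATK to assign reads to alleles after alignment to mm10 with STAR (version 2.7.2c, per the labels) and removal of duplicates with Picard, and summed over variants and replicates. The TPM values are also as deposited, from HTSeq counts that the authors scaled by length and library size. Columns with the authors' own fold changes, p-values and classes were not used.

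CAST shares, log2 fold changes with SE from the counts, exact (Clopper-Pearson, 95%) intervals and two-sided exact binomial tests were computed from the counts with no added reads, in Python (version 3.11.15) with scipy (1.17.1), pandas (2.3.3) and numpy (2.4.6). The tests were checked on simulated data. Where an allele had 0 reads, 3 reads were used as its limit. Because a read can be counted at several variants and in 2 records, intervals can be too narrow. One item is not reported here, though the counts, medians and shares over all members include it. Every other Polr record is named. Full statistics are given for ASE records, for up to 4 others per allele with the largest fold change past the adjusted p, and for genes with 2 records. Members and lists were chosen with earlier results of these data known. Alternatives changed read, variant and TPM minimums, the null share, the correlation of reads, the fold threshold and added reads, the adjustment and the records counted.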

Additional observations from a re-analysis of the deposited data

How the results depend on the processing

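The count of 5 ASE records became 3 of 30 with at least 3 variants, against 13.2% of all records. It became 2 of 39 with a read correlation of 0.05 (the lncRNA record of Polr1d and Polr3c), against 3.06%. A 1.5-fold threshold gave 8 of 39, against 25.8%, and added Polr2l and Polr2m among others. With at least 20 reads the ASE count was 4 of 36 (14.2% of all records), without Polr3gl. With at least 100 reads it was 4 of 32 (11.9%), again without Polr3gl. The count of 22 unequal records became 6 with a correlation of 0.01, against 14.3% of all records, and 2 with 0.05, against 3.06%. No value reversed under the alternatives run. Depth limits Polr1b lncRNA, Polr3gl and Polr3b lncRNA, each with at most 15 reads. No paired analysis was possible because the table holds no values per replicate, and for the same reason no replicate could be left out.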

Other observations

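Of the 28 subunit genes, 10 (35.7%) had the start of another gene on the opposite strand within 1000 bases upstream, against 20.7% of the 10902 genes with an expressed protein-coding record. The partner of Polr2i, Tbcb, a tubulin folding cofactor whose start lies 60 bases away, had 849 CAST and 690 S129 reads, or 55.2% CAST, beside 55.5% in Polr2i. Rnf115, which starts 223 bases from Polr3c, held no variant. The partner of Polr2l, Tspan4, had 90 and 122 reads, or 42.5% CAST, beside 65.8% in Polr2l. These shares are given as values and the differences were not tested.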
